A study of Mus musculus with 24 samples.

Results

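The genes described are 10 members of toll-like receptor 4 (TLR4) and nuclear factor kappa B (NF-kB) signaling, measured by RNA sequencing in the blood and cortex of newborn mice whose dams breathed nano-sized particulate matter (nPM) or filtered air during pregnancy. The members were chosen by symbol and not by a rule on measured values, though earlier results of these data were known. They were Tlr2, Tlr4, Cd14, Myd88, Nfkb1, Rela, Nfkbia, Tnf, Il1b and Tnfaip3. All 10 were found among the 48709 genes of the count table. The question put to the data was whether transcripts of this inflammatory pathway differed between nPM-exposed and control neonates, in each tissue and in each sex.

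TLR4 sits on monocytes, macrophages, microglia and neutrophils and binds bacterial lipopolysaccharide handed to it by CD14. The bound receptor recruits the adaptor MYD88, and a kinase cascade then marks the inhibitor IkB alpha for destruction, which frees NF-kB dimers to enter the nucleus. NF-kB switches on cytokine genes such as Tnf and Il1b and also the genes of its own inhibitors. Much of this control acts on proteins, which messenger RNA levels do not show.

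Tlr2 (ENSMUSG00000027995, chr3:83836272-83841767, minus strand of mm10) encodes a receptor for bacterial lipoproteins. Tlr4 (ENSMUSG00000039005, chr4:66827584-66930284, plus strand) encodes the lipopolysaccharide receptor, and Cd14 (ENSMUSG00000051439) its co-receptor. Myd88 (ENSMUSG00000032508, chr9:119335934-119341411, minus strand) encodes the adaptor shared by most toll-like receptors and the interleukin-1 receptor. Nfkb1 (ENSMUSG00000028163, chr3:135584655-135691547, minus strand) and Rela (ENSMUSG00000024927, chr19:5637483-5648130, plus strand) encode subunits of the classical NF-kB dimer. Nfkbia (ENSMUSG00000021025, chr12:55489411-55492647, minus strand) encodes IkB alpha, which holds NF-kB in the cytoplasm. Tnfaip3 (ENSMUSG00000019850, chr10:19000910-19015657, minus strand) encodes a ubiquitin-editing enzyme that shuts the pathway down. Tnf (ENSMUSG00000024401, chr17:35199381-35202007, minus strand) and Il1b (ENSMUSG00000027398, chr2:129364570-129371139, minus strand) encode the cytokines tumor necrosis factor and interleukin-1 beta. In the deposited gene map Myd88 overlaps Slc22a14 on the same strand and Acaa1a on the other, Nfkb1 overlaps the gene model Gm43430, and Il1b overlaps the antisense gene Il1bos. The strand setting of the counting is not given in the sources used here, so reads of Il1b and Il1bos cannot be told apart.

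The 24 libraries were 12 of whole blood and 12 of cortex, with 3 for each combination of tissue, sex and exposure. The labels name no engineered allele. The labels name the strain C57BL/6J, an age of 3 to 5 days, a dose of 300 mg/m3 and sessions of 5 h, held 3 days per week from gestational day 2 until birth. The study's methods differ from the labels in naming the substrain NJ and micrograms as the unit of dose, and they give the age as day 5. Controls were neonates of dams in filtered air. Pups of 1 sex and exposure came from separate litters, by the study's methods. The labels do not tie a blood library to a cortex library of the same animal, nor a female to a male of the same litter.

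Cortex libraries held 22301409 to 33804371 counts on genes and blood libraries 13595647 to 21895536. A floor of 3 counts corresponds to 0.0887 to 0.135 CPM (counts scaled to a common library total) in cortex and 0.137 to 0.221 CPM in blood, and covers counting error only, since reads copied by PCR are not independent molecules. Cortex markers were as labelled, with 8 neuronal genes summing to 3010 to 3390 CPM and 9 microglial genes to 213 to 349 CPM. Neutrophil genes summed to 2.75 to 6.79 CPM in cortex, where Ly6g was at 0 in every library, and to 72.4 to 165 CPM in the 11 blood libraries used. Globin genes took 66.2 to 76.8% of the counts of those 11 blood libraries and 50.1% of those of V2, a control female. V2 also held 8450.4 CPM of 6 keratinocyte genes, against at most 8.09 CPM in any other blood library, and was left out of the blood comparisons. The study's methods left out 1 blood sample of distinct count distribution without naming it, and that it was V2 is an inference. Blood library V5, an nPM male, held 242 counts of 3 neuronal genes (Snap25, Stmn2 and Syt1), against 74 in V2, 0 to 10 in the 6 remaining blood libraries of lane 1 and 36 to 70 in the 4 of lane 3.

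Promoter windows were looked up because several members are themselves NF-kB target genes. RefSeq windows on GRCm38.p6, from 250 bases before to 50 bases after an annotated start, were used for 7 of the 10 members. Tlr4, Cd14 and Nfkb1 were not searched. The NF-kB consensus, searched on both strands, was present in windows of 3 members (Tlr2, Nfkbia and Tnfaip3) and in 8.46% of all 32851 windows. A looser pattern, GGGNNNNNCC on either strand, which every consensus match also fits, was present in 5 of the 7 members and in 50.8% of all windows. Tnfaip3 had a second window, chr10:19011914-19012213, with 0 consensus matches, so the 7 members had 8 windows. The 3 windows with a consensus match are shown 5′ to 3′ on the gene's strand. Of the windows searched for the members, these carry the letters the pathway's end product reads. Capitals mark the consensus matches, and a match is a description of letters, not of binding.
Tlr2 window, chr3:83841559-83841858, minus strand: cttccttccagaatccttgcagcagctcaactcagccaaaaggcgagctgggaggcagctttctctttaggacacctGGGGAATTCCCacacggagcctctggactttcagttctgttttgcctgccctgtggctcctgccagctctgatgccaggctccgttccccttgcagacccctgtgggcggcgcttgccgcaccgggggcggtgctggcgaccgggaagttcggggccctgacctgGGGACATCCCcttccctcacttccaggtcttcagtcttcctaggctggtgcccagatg
Nfkbia window, chr12:55492598-55492897, minus strand: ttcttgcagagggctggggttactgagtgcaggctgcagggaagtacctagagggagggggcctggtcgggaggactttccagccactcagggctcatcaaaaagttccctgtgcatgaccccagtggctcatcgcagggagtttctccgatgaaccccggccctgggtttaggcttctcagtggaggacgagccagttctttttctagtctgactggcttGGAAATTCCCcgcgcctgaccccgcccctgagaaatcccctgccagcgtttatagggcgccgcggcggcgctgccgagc
Tnfaip3 window, chr10:19015361-19015660, minus strand: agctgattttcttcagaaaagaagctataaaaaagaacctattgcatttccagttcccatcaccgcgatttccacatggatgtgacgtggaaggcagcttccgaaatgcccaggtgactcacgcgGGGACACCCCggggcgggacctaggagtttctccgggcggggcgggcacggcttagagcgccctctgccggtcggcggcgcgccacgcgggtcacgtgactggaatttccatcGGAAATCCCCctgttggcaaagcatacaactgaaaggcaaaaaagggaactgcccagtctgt
The Tlr2 window held GGGGAATTCC at position -173 from the start, GGGAATTCCC overlapping it at position -172, and GGGACATCCC at position -8. The Nfkbia window held GGAAATTCCC at position -29. The Tnfaip3 window held GGGACACCCC at position -125 and GGAAATCCCC at position -12.

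In the cortex all members except the cytokines were measured well above the floor, and their levels in nPM and control neonates were close. Levels are given as CPM scaled by TMM factors, which correct for differences in library makeup within a tissue. Per kilobase of counted gene length, Nfkbia stood at 10.01 ± 0.659 CPM (mean ± SD over 12 cortex libraries), Rela at 5.21 ± 0.434 and Nfkb1 at 1.69 ± 0.115. Myd88 followed at 1.43 ± 0.140 CPM per kilobase and Tnfaip3 at 0.995 ± 0.0905. Cd14 at 0.625 ± 0.180, Tlr4 at 0.477 ± 0.0635 and Tlr2 at 0.469 ± 0.0786 CPM per kilobase were lower, and these 3 neighbours overlapped within 1 SD, whereas each gene above them stood apart from the next by more than their SDs. Il1b at 0.0572 ± 0.0588 and Tnf at 0.0188 ± 0.0203 CPM per kilobase were the lowest.

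The receptors and the adaptor gave overlapping values in the 2 exposure groups of cortex. Tlr2 ranged from 0.895 to 1.85 CPM with a median of 1.47 in 6 control libraries, and from 1.24 to 1.6 CPM with a median of 1.43 in 6 nPM libraries. Tlr4 ranged from 2.07 to 3.13 CPM with a median of 2.65 in controls, and from 2.36 to 3.12 CPM with a median of 2.69 after nPM. For both receptors the nPM libraries lay inside the control range. Cd14 ranged from 0.510 to 1.42 CPM with a median of 1.14 in controls, and from 0.579 to 1.24 CPM with a median of 0.888 after nPM. Myd88 ranged from 3.25 to 4.22 CPM with a median of 3.84 in controls, and from 3.06 to 4.23 CPM with a median of 3.64 after nPM. Cd14 showed the widest spread of the 4, with 13 to 46 counts per library.

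The NF-kB subunits and inhibitors had more counts per library in cortex than the other members. Nfkb1 ranged from 18.5 to 23.3 CPM with a median of 21.2 in controls, and from 18.8 to 20.9 CPM with a median of 19.8 after nPM. Rela ranged from 12.2 to 15.6 CPM with a median of 14.2 in controls, and from 13.1 to 16.2 CPM with a median of 13.6 after nPM. Nfkbia ranged from 14.9 to 16.9 CPM with a median of 16 in controls, and from 13.2 to 16.9 CPM with a median of 16.1 after nPM. The groups overlapped for each of these genes. Tnfaip3 ranged from 5.61 to 8.25 CPM with a median of 7.09 in controls, and from 6.91 to 7.81 CPM with a median of 7.26 after nPM. Across all 12 cortex libraries the coefficient of variation was 6.84% for Nfkb1 and 6.58% for Nfkbia, where counting alone would give 4.06% and 4.61%.

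Both cytokines were at or near the floor in cortex. Tnf had 0 or 1 count in each of 6 control libraries, and 0, 0, 1, 1, 1 and 4 counts in the 6 nPM libraries. Il1b had 1, 1, 3, 4, 5 and 13 counts in controls, and 0, 0, 2, 2, 3 and 6 counts after nPM. These counts do not allow a difference between the groups to be seen at this depth. A filter on at least 1 count in every library took both genes out of the model fit, and an exact permutation test over the libraries (two-sided, 924 regroupings) gave p = 0.465 for Tnf and 0.242 for Il1b.

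**Figure D1:**
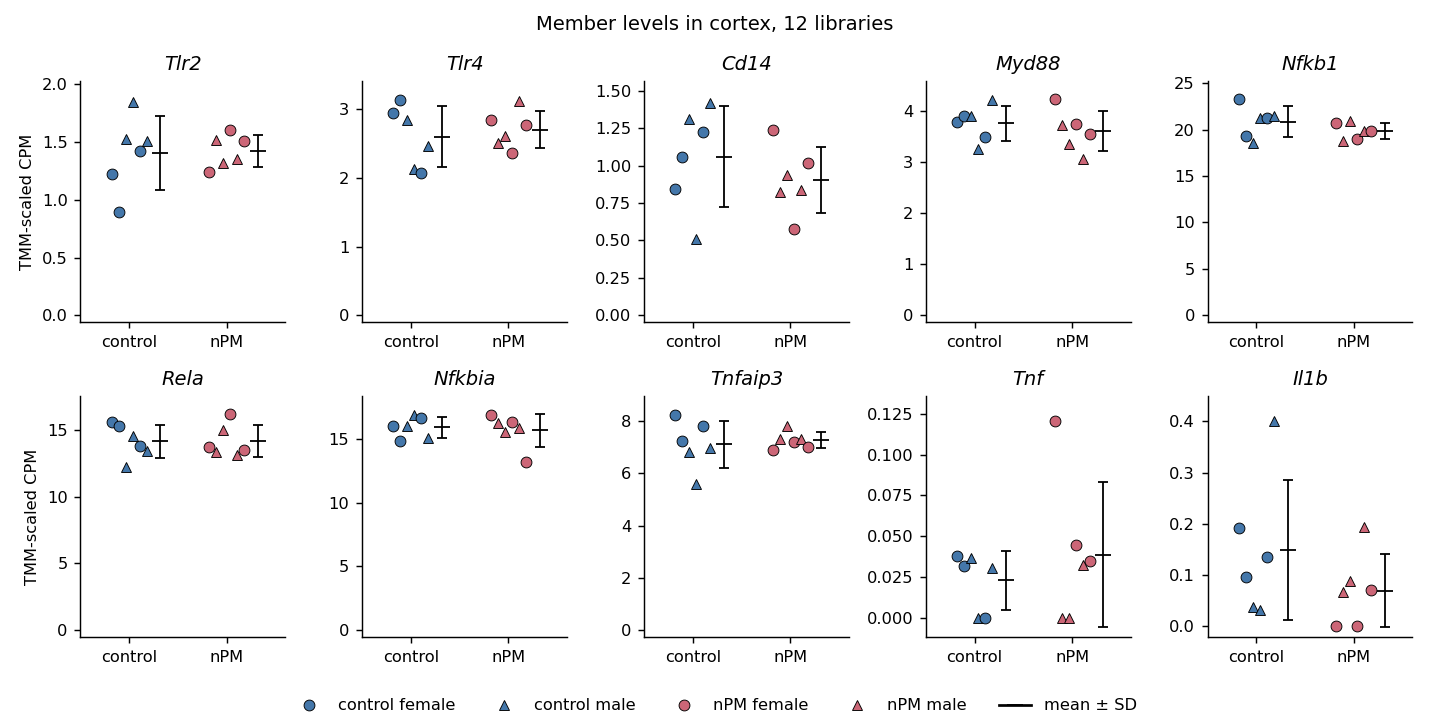
TMM-scaled CPM (vertical axis, from 0) of the 10 members in 6 control and 6 nPM cortex libraries, 1 panel per gene. Points are libraries, circles female and triangles male, with mean ± SD beside each group. The groups overlap in every panel, and Tnf and Il1b lie at or below 0.400 CPM in every library.

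No member was called different between nPM and control cortex. With edgeR's quasi-likelihood test on 20857 genes, adjusted for sex and RNA integrity number (RIN), 0 of the 8 members tested reached an adjusted p of 0.05 and 0 had an unadjusted p under 0.05. Of all genes tested 0.0144% were called and 5.67% had an unadjusted p under 0.05. Limma voom and DESeq2 also gave 0 of 8 at either threshold. Among the receptors and the adaptor the log2 fold change (nPM against control) was 0.03 for Tlr2 (SE 0.18, 95% interval -0.36 to 0.41), 0.06 for Tlr4 (SE 0.14, -0.24 to 0.37), -0.21 for Cd14 (SE 0.25, -0.76 to 0.33) and -0.06 for Myd88 (SE 0.12, -0.31 to 0.18). Among the subunits and inhibitors it was -0.07 for Nfkb1 (SE 0.06, -0.20 to 0.06), -0.01 for Rela (SE 0.07, -0.15 to 0.14), -0.02 for Nfkbia (SE 0.07, -0.17 to 0.13) and 0.03 for Tnfaip3 (SE 0.09, -0.15 to 0.22). The smallest adjusted p of a member, that of Nfkb1, was 0.902. The median over the 8 members was -0.01, beside 0.00 over all genes tested.

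None of the 10 members separated the exposure groups in cortex, where 0.197% of all genes tested had nPM and control libraries that did not overlap. The exact permutation p of the members ranged from 0.229 for Nfkb1 to 0.994 for Rela, where the smallest p that this design allows is 0.00216. Within sequencing lane 2 (4 libraries against 4) the log2 ratio of group means was 0.11 for Cd14, and within lane 3 (2 against 2) it was -0.90. For Nfkb1 the lanes gave -0.04 and -0.14, and for Rela -0.05 and 0.11.

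The wider pathway gave a like picture in cortex. Of 64 further genes listed for the pathway, 56 were tested, 0 reached an adjusted p of 0.05 with edgeR, limma voom or DESeq2, and 3 had an unadjusted edgeR p under 0.05 (2 with limma voom and 3 with DESeq2). The 3 were Ccl3, Tlr9 and Tlr1. Ccl3, a chemokine that recruits myeloid cells, averaged 0.487 ± 0.194 CPM after nPM and 0.235 ± 0.116 CPM in controls (n = 6 each, 4 to 24 counts), a log2 fold change of 1.09 (SE 0.37, edgeR adjusted p = 0.844). Tlr9, a receptor for unmethylated DNA, averaged 0.187 ± 0.0819 CPM after nPM and 0.365 ± 0.123 CPM in controls, with a log2 fold change of -0.95 (SE 0.36). Tlr1, which pairs with TLR2, averaged 0.995 ± 0.341 CPM after nPM and 0.661 ± 0.156 CPM in controls, with a log2 fold change of 0.57 (SE 0.26). The next in order of p were Irak3, an inhibitor of the receptor-bound kinases, with a log2 fold change of 0.64 (SE 0.32), Tab1 at -0.10 (SE 0.05) and the NF-kB subunit gene Rel at -0.22 (SE 0.12). By role, the median log2 fold change was 0.01 for 14 receptors and co-receptors, 0.00 for 19 adaptors and kinases, -0.13 for 6 tested subunit and IkB genes, -0.01 for 7 negative regulators and -0.03 for 10 tested cytokine and response genes. Genes that mark microglia, cells that carry these receptors, summed to a median of 252 CPM in nPM and 256 CPM in control cortex.

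In blood the same members were counted from few reads, and globin transcripts took most of each library. Per library of the 11 used, Tlr2 had 2 to 25 counts, Tlr4 4 to 21, Cd14 0 to 6 and Myd88 5 to 30. Nfkb1 had 34 to 134 counts and was the best measured. In bulk blood, fewer cells of a type and less RNA per cell cannot be told apart. Per kilobase, Nfkbia stood at 1.05 ± 0.381 CPM (n = 11) and Il1b at 0.709 ± 0.278, followed by Myd88 at 0.351 ± 0.148, Rela at 0.342 ± 0.114 and Nfkb1 at 0.296 ± 0.0623. Tlr2 stood at 0.208 ± 0.0948 CPM per kilobase, Tnfaip3 at 0.128 ± 0.0587, Tnf at 0.114 ± 0.0566, Tlr4 at 0.0961 ± 0.0428 and Cd14 at 0.0815 ± 0.0644. Each neighbouring pair in this order overlapped within 1 SD. Il1b was the second member by level in blood and the second from last in cortex.

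The receptors and the adaptor varied widely between blood libraries. In the 5 control libraries Tlr2 stood at 0.502 and 0.740 CPM in females and at 0.550, 0.566 and 1.12 CPM in males. In the nPM libraries it stood at 0.101, 0.480 and 1.03 CPM in females and at 0.475, 0.515 and 0.817 CPM in males. The lowest value, an nPM female, rested on 2 counts, and the groups overlapped. Myd88 ranged from 0.717 to 1.27 CPM in controls with a median of 1.02, and from 0.253 to 1.58 CPM after nPM with a median of 0.727. Tlr4 ranged from 0.393 to 0.778 CPM in controls and from 0.187 to 0.919 CPM after nPM. The nPM range enclosed the control range for Tlr4 and for Myd88. Cd14 had 0, 0, 3, 3 and 6 counts in control and 0, 1, 3, 3, 4 and 6 counts in nPM libraries and was not tested in the model fit, and its exact permutation p was 0.662.

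Of the subunits and inhibitors in blood, Nfkb1 ranged from 2.67 to 4.80 CPM in controls (median 3.45) and from 2.36 to 4.34 CPM after nPM (median 3.74). Rela ranged from 0.629 to 1.16 CPM in controls and from 0.427 to 1.40 CPM after nPM. Nfkbia ranged from 0.920 to 2.39 CPM in controls and from 0.858 to 2.61 CPM after nPM. Again the groups overlapped throughout. Tnfaip3 stood at 0.797 and 1.54 CPM in control females and at 0.708, 0.864 and 1.43 CPM in control males. After nPM it stood at 0.107, 0.505 and 0.788 CPM in females and at 0.950, 1.08 and 1.38 CPM in males. The 2 lowest values were those of nPM females, and the groups overlapped.

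Il1b, the better expressed of both cytokine members in blood, stood at 0.967 and 1.25 CPM in control females and at 0.761, 1.2 and 1.41 CPM in control males. After nPM it stood at 1.18, 2.32 and 2.35 CPM in females and at 0.792, 1.31 and 1.33 CPM in males. The 2 highest values were nPM females with 44 and 46 counts, and the other nPM libraries lay within the control range. Neutrophil genes summed to 74.6 to 143 CPM in nPM and to 72.4 to 165 CPM in control blood, and their part in these values was not tested. Tnf had 2 to 6 counts in control and 2 to 8 counts in nPM libraries.

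**Figure D2:**
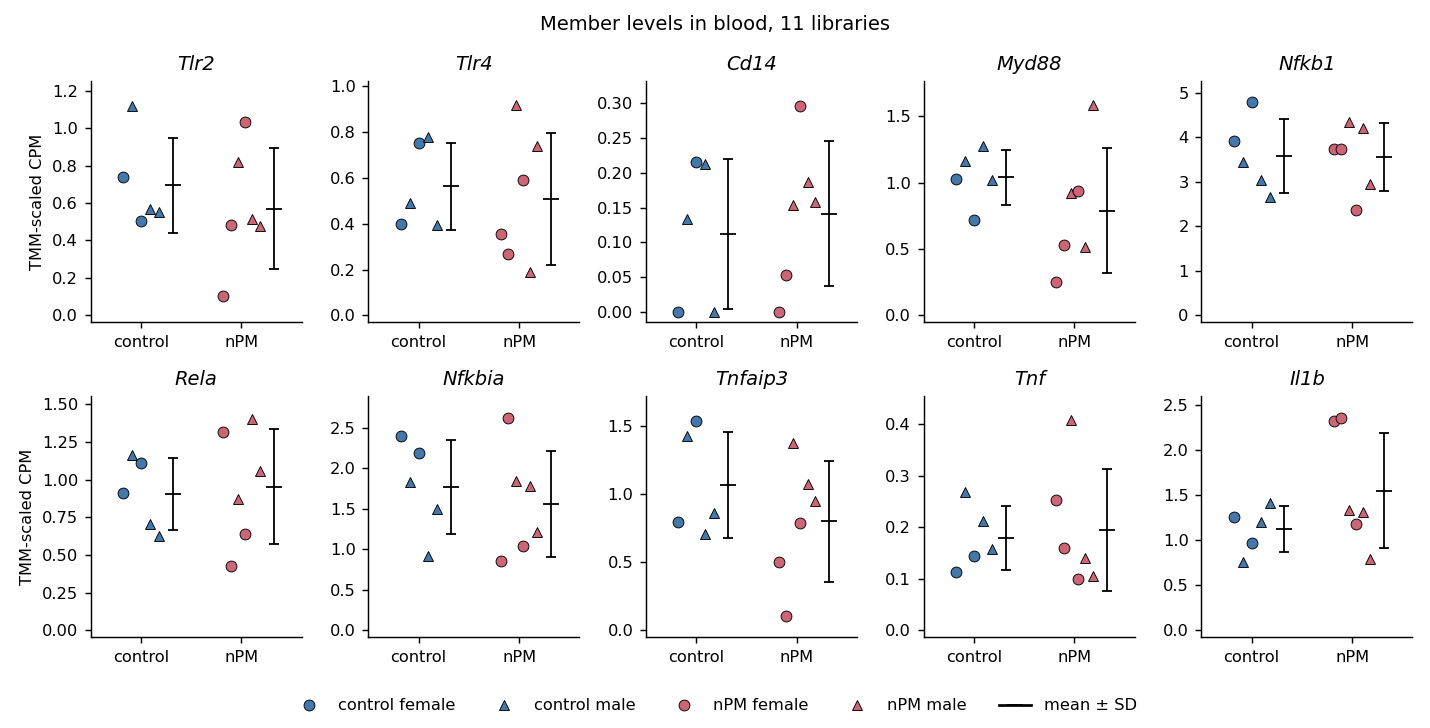
TMM-scaled CPM (vertical axis, from 0) of the 10 members in 5 control and 6 nPM blood libraries, 1 panel per gene. Points are libraries, circles female and triangles male, with mean ± SD beside each group. The groups overlap in every panel, and 2 nPM females at 2.32 and 2.35 CPM lead the Il1b panel.

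No member was called different between nPM and control blood either. The edgeR test on 9977 genes gave 0 of 9 tested members at an adjusted p of 0.05 and 0 at an unadjusted p under 0.05, and limma voom and DESeq2 gave the same counts. Of all genes tested 0% were called and 3.11% had an unadjusted p under 0.05. The log2 fold change was -0.56 for Tlr2 (SE 0.39, 95% interval -1.38 to 0.26), -0.15 for Tlr4 (SE 0.45, -1.08 to 0.79) and -0.46 for Myd88 (SE 0.36, -1.21 to 0.29). It was -0.02 for Nfkb1 (SE 0.22, -0.48 to 0.44), 0.06 for Rela (SE 0.34, -0.64 to 0.76), -0.31 for Nfkbia (SE 0.27, -0.88 to 0.26) and -0.52 for Tnfaip3 (SE 0.41, -1.38 to 0.34). It was 0.19 for Tnf (SE 0.51, -0.88 to 1.26) and 0.43 for Il1b (SE 0.30, -0.21 to 1.07). The edgeR adjusted p was 0.99957 for each. The median over the 9 members was -0.15, beside 0.00 over all genes tested. The intervals were wider than in cortex for each member tested in both tissues.

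None of the 10 members had nPM and control libraries apart in blood, where 0.221% of all genes tested did. The exact permutation p (two-sided, 462 regroupings) ranged from 0.245 for Il1b to 0.959 for Nfkb1, with 0.00216 the smallest possible. Within lane 1 and lane 3 the log2 ratio of group means for Il1b was 0.23 and 0.87, for Tlr2 -0.02 and -0.52, and for Rela 0.44 and -0.68.

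**Figure D3:**
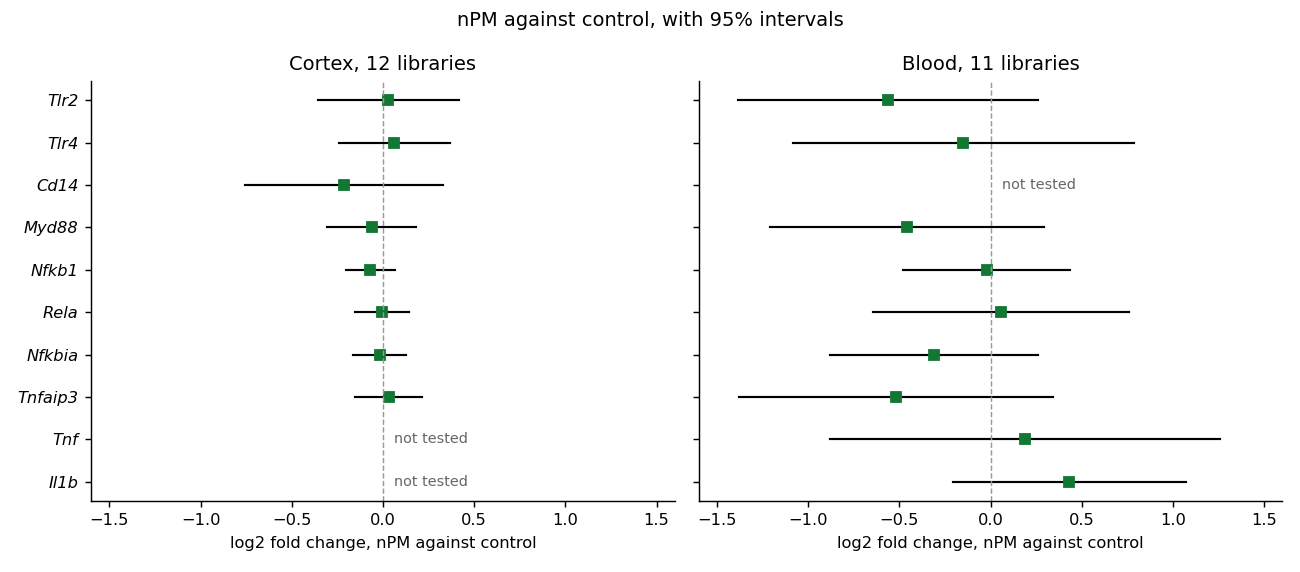
Log2 fold change of nPM against control (horizontal axis) with 95% intervals from the edgeR fit for each member, cortex on the left (12 libraries) and blood on the right (11 libraries). Every interval includes 0, and the blood intervals are the wider, reaching -1.38 for Tlr2 and 1.26 for Tnf.

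Of the 64 wider pathway genes, 46 were tested in blood, and edgeR, limma voom and DESeq2 each gave 0 at an adjusted p of 0.05 and 0 at an unadjusted p under 0.05. The smallest unadjusted p belonged to Traf6, a ubiquitin ligase downstream of MYD88, which averaged 1.0 ± 0.187 CPM after nPM (n = 6) and 1.49 ± 0.528 CPM in controls (n = 5), a log2 fold change of -0.52 (SE 0.30). Ticam1, the other main TLR4 adaptor, averaged 0.323 ± 0.216 CPM after nPM and 0.175 ± 0.0631 CPM in controls, a difference of 0.85 on the log2 scale (SE 0.50). The next were Lbp at -0.71 (SE 0.43), Tlr8 at -0.66 (SE 0.41), Nfkb2 at -0.53 (SE 0.33) and Tnfrsf1b at 0.30 (SE 0.21). The median over the 46 genes was -0.03.

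The comparison between the sexes asked whether the nPM difference in a member was the same in female and male neonates. In cortex Tnfaip3 stood at 7.76 ± 0.514 CPM in control females and 7.05 ± 0.154 CPM in nPM females, and at 6.46 ± 0.741 CPM in control males and 7.48 ± 0.282 CPM in nPM males (n = 3 each). The 3 nPM females at 6.91 to 7.22 CPM lay below the 3 control females at 7.22 to 8.25 CPM, and the 3 nPM males at 7.30 to 7.81 CPM lay above the 3 control males at 5.61 to 6.96 CPM. In females the gap between the groups was narrow, from 7.216 to 7.222 CPM. Of the genes tested in cortex, 1.38% had groups apart in both sexes in opposite directions. The nPM-by-sex interaction of Tnfaip3 was 0.29 on the log2 scale (SE 0.17, 95% interval -0.07 to 0.65, edgeR unadjusted p = 0.110, adjusted p = 0.608). The interaction was -0.53 for Tlr2 (SE 0.36) and -0.25 for Myd88 (SE 0.24). Tlr2 stood at 1.18 ± 0.267 CPM in control and 1.45 ± 0.190 CPM in nPM females, and at 1.63 ± 0.190 CPM in control and 1.40 ± 0.107 CPM in nPM males. With edgeR 0 of the 8 members had an interaction at an adjusted p of 0.05, and 0 at an unadjusted p under 0.05, where 0% and 9.68% of all genes did. Limma voom and DESeq2 gave 0 of 8 at either threshold.

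In blood the interaction was above 0, meaning a higher nPM to control ratio in males, for 6 of the 9 members and for 54.0% of all genes tested, and none of the 9 passed the test. The 6 included the 4 subunit and inhibitor genes, while Tlr2 at -0.71 (SE 0.78), Il1b at -0.69 (SE 0.63) and Tnf at -0.18 (SE 1.11) lay below 0. Nfkb1 stood at 4.36 ± 0.618 CPM in control females (n = 2) and 3.28 ± 0.792 CPM in nPM females (n = 3), and at 3.05 ± 0.387 CPM in control and 3.84 ± 0.765 CPM in nPM males (n = 3 each). Tnfaip3 stood at 1.17 ± 0.526 CPM in control and 0.467 ± 0.342 CPM in nPM females, and at 1.0 ± 0.381 CPM in control and 1.14 ± 0.220 CPM in nPM males. The interaction was 0.83 for Nfkb1 (SE 0.43, edgeR adjusted p = 0.485), 1.51 for Tnfaip3 (SE 0.79, adjusted p = 0.501) and 1.19 for Rela (SE 0.68, adjusted p = 0.518). Of 9 members, 0 had an unadjusted p under 0.05 with edgeR or DESeq2 and 1 had with limma voom (Tnfaip3), whereas 10.7% of all genes had with edgeR and 0% reached an adjusted p of 0.05. The interaction in blood rests on 2 control females. That of Tnfaip3 was 0.763 without control female V4, 0.778 without nPM female V18 and 2.70 without nPM female V3.

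**Figure D4:**
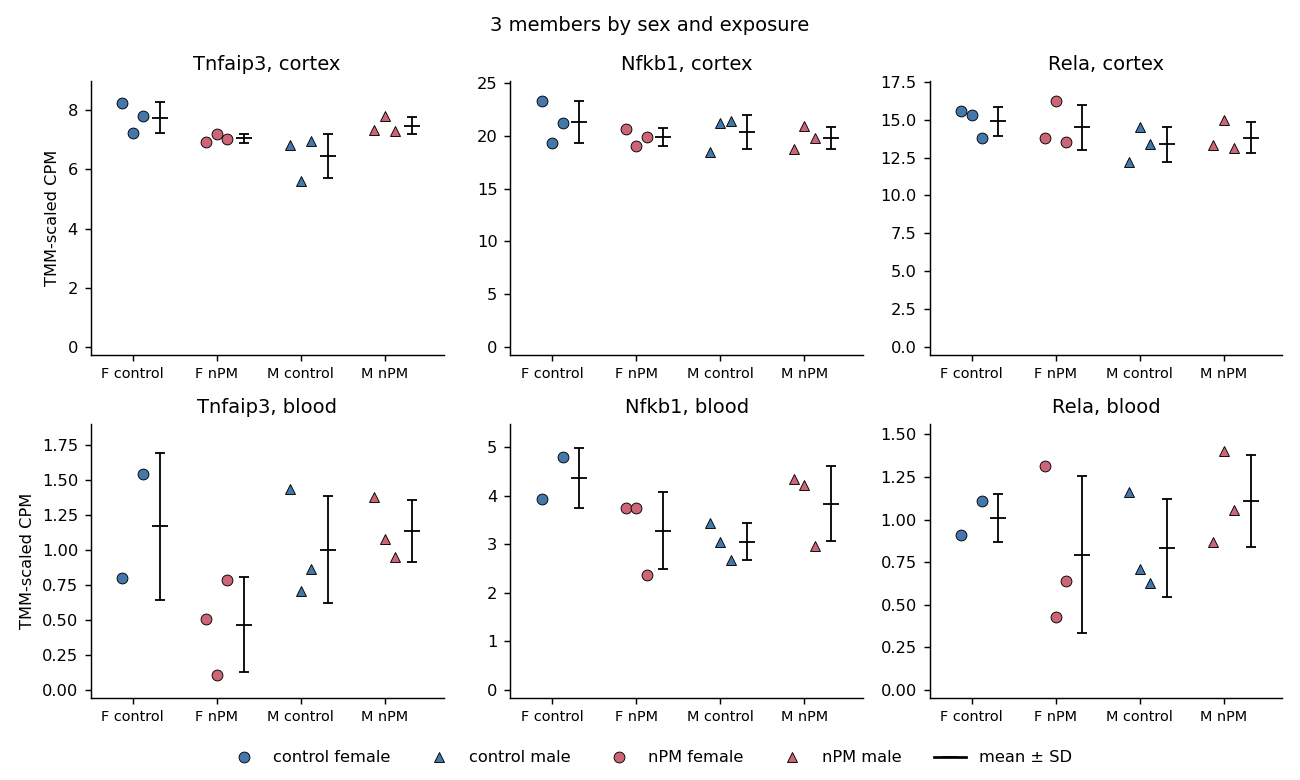
TMM-scaled CPM (vertical axis, from 0) of Tnfaip3, Nfkb1 and Rela in cortex (top) and blood (bottom) by sex and exposure. Points are libraries with mean ± SD beside them, and F and M stand for female and male. Tnfaip3 of cortex is the panel in which nPM females lie below and nPM males above their controls.

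Fitted in each sex alone, 1 member in 1 fit had an unadjusted p under 0.05. This was Tnfaip3 in female blood, with counts of 14 and 43 in the control and 2, 10 and 16 in the nPM libraries, a log2 fold change of -1.37 (SE 0.62, edgeR unadjusted p = 0.0412, adjusted p = 0.599). It was -0.79 without control female V4, -0.87 without nPM female V18, -0.90 without nPM female V1 and -2.84 without nPM female V3. At an adjusted p of 0.05 there were 0 of 9 members in female blood, where 0.0182% of all genes were called and 8.11% had an unadjusted p under 0.05. In male blood 0 of 9 members passed either threshold, beside 0% and 3.86% of all genes, and Tlr2 had the smallest p with a log2 fold change of -0.72 (SE 0.60). In female cortex 0 of 8 members passed either threshold, beside 1.11% and 15.4% of all genes, and Tlr2 again had the smallest p with 0.31 (SE 0.28). In male cortex 0 of 9 members passed either threshold, beside 0% and 4.51% of all genes, and Cd14 had the smallest p with -0.58 (SE 0.38). DESeq2 and limma voom gave 0 members at an adjusted p of 0.05 in each of these 4 fits, and at an unadjusted p under 0.05 limma voom gave 1 in female blood and DESeq2 gave 0.

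Control libraries of both tissues were compared to place the pathway where no particles were breathed. Without any correction for library makeup, 8 of the members took more of the counts in cortex than in blood. Nfkb1 averaged 20.8 ± 2.02 CPM in 6 control cortex libraries and 3.63 ± 1.52 CPM in 5 control blood libraries, and Rela 14.1 ± 1.51 and 0.924 ± 0.403 CPM. Nfkbia averaged 15.8 ± 0.925 CPM in cortex and 1.80 ± 0.786 CPM in blood, and Tnfaip3 7.10 ± 0.996 and 1.12 ± 0.621 CPM. Tlr4 averaged 2.59 ± 0.454 and 0.562 ± 0.247 CPM, Myd88 3.74 ± 0.318 and 1.0 ± 0.161 CPM, Tlr2 1.40 ± 0.312 and 0.693 ± 0.316 CPM, and Cd14 1.05 ± 0.323 and 0.117 ± 0.117 CPM. The cytokines went the other way, with Il1b at 0.148 ± 0.135 CPM in cortex and 1.08 ± 0.204 CPM in blood, and Tnf at 0.0228 ± 0.0179 and 0.177 ± 0.0733 CPM.

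These CPM are shares of all counts, and in blood globin takes most of them. Scaled by TMM, which sets the bulk of genes level between the tissues, the members were instead lower in cortex. On that scale the log2 fold change of cortex against blood was -6.91 for Il1b (SE 0.42, edgeR adjusted p = 1.33e-10), -3.10 for Tlr2 (SE 0.28), -2.23 for Myd88 (SE 0.20) and -1.95 for Tlr4 (SE 0.27). It was -1.62 for Nfkb1 (SE 0.12), -1.48 for Tnfaip3 (SE 0.21), -1.0 for Nfkbia (SE 0.17) and -0.23 for Rela (SE 0.17, adjusted p = 0.224). Of 8 members tested (10275 genes in all), 7 were called, all higher in blood relative to the bulk of genes, beside 39.5% of all genes called higher in blood, 46.8% called higher in cortex and 86.2% called in either direction. Cd14 and Tnf were not tested because at least 1 library had no count. The median over the 8 members was -1.79, beside 0.24 over all genes.

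With library totals alone the direction turned for 7 of the 8 members, to 1.35 for Tlr2, 2.50 for Tlr4, 2.25 for Myd88, 2.84 for Nfkb1, 4.22 for Rela, 3.46 for Nfkbia and 2.95 for Tnfaip3, and stayed at -2.46 for Il1b. That choice moved the median of all genes from 0.24 to 4.69. Measured from the median gene, each of the 8 members lay lower in cortex under every alternative in which it was tested, from -8.33 to -6.73 for Il1b (not tested with nPM libraries), from -4.55 to -3.03 for Tlr2 and from -1.66 to -0.32 for Rela. A change of scaling factors shifts all genes by nearly the same amount, and subtracting the median removes that shift. The agreement of both scalings was therefore fixed by this step and cannot tell which tissue held more of a transcript. Rela, the ubiquitous subunit, differed least from the median gene, and Il1b differed most.

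**Figure D5:**
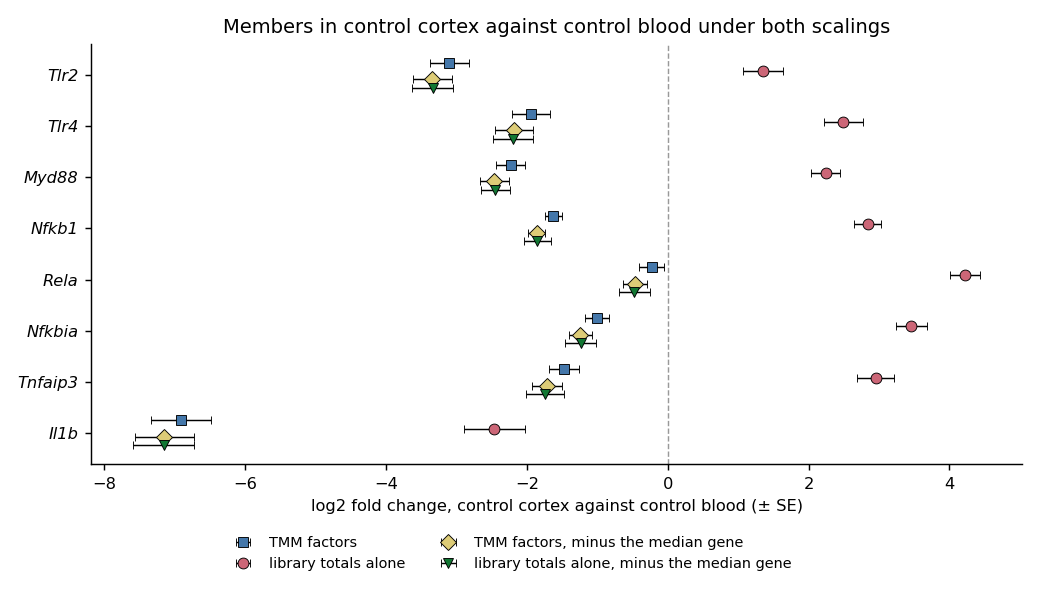
Log2 fold change of 6 control cortex against 5 control blood libraries (horizontal axis, ± SE) for the 8 members tested, as fitted with TMM factors or with library totals alone, and each also with the median of all genes subtracted. All members but Il1b lie right of 0 with totals alone and left of 0 on the other scales. The values set against the median gene fall together for both scalings because subtracting the median removes the shift between them.

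Of the wider pathway list 47 genes were tested between the tissues, 37 were called higher in blood and 6 higher in cortex with TMM, and with library totals alone 2 of 39 called genes were higher in blood. The smallest p-values belonged to the kinase gene Irak1 at -3.96 (SE 0.13), Tab3 at -4.02 (SE 0.14), Tab2 at -3.69 (SE 0.13), Ikbkg, the regulatory subunit of the IkB kinase, at -3.67 (SE 0.15), the tumor necrosis factor receptor gene Tnfrsf1b at -4.20 (SE 0.21) and the NF-kB target Birc3 at -4.43 (SE 0.23). In plain CPM Irak1 averaged 21.1 ± 1.12 CPM in cortex and 18.2 ± 1.55 CPM in blood, and Tab3 30.6 ± 3.23 and 28.3 ± 5.92 CPM. Tnfrsf1b averaged 3.68 ± 0.740 and 3.97 ± 1.55 CPM, and Birc3 1.80 ± 0.452 and 2.22 ± 0.917 CPM. Tab2 at 62.4 ± 4.27 and 44.7 ± 2.23 CPM and Ikbkg at 46.3 ± 2.43 and 32.6 ± 3.64 CPM were higher in cortex. Each of the 6 turned to a value above 0 with library totals alone, from 0.022 for Birc3 to 0.85 for Ikbkg. Those totals summed only the genes tested in the fit, whereas plain CPM used the counts on all genes. The means of Tnfrsf1b and Birc3 were lower in cortex in plain CPM, so their sign depended on that choice. With library totals alone their edgeR adjusted p was 0.363 and 0.937.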

How the data were processed

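Total RNA of whole blood and cortex was depleted of ribosomal RNA (RiboZero Gold) and sequenced on an Illumina HiSeq instrument. The authors checked reads with FastQC, trimmed with Trimmomatic where needed, aligned to mm10 with HISAT2 and counted genes with featureCounts 1.5.0-p3 on Gencode M11. Per the labels and file headers the deposited table holds raw counts, without normalization, for 48709 genes in 24 libraries. The deposited gene map gives coordinates and lengths, and the authors' mean RPKM (scaled by gene length and library total) was not used here.

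Members were matched by symbol. The 10 members, the 64 wider pathway genes and the marker lists were chosen with earlier results of these data known. The 6 keratinocyte and 4 connective tissue genes were chosen after V2 had been seen, in which the latter summed to 4211 CPM against at most 38.1 CPM in other blood libraries. The named genes were all members and, of the wider list, the 6 with the smallest p in each of 3 comparisons.

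Tests used edgeR 4.0.16 (R 4.3.3) with TMM factors and the quasi-likelihood F test (two-sided, prior count 0.125) on genes that no fitted library lacked (minimum 1 count). Exposure fits had sex and RIN as covariates, fits of 1 sex had RIN, and the tissue fit of controls had sex. P-values were adjusted by Benjamini-Hochberg over all genes tested, and a call was an adjusted p under 0.05. Single genes were also tested by exact permutation of the libraries. Alternatives were limma 3.58.1 (voom), DESeq2 1.42.0 without independent filtering, RLE factors, library totals alone, 2 other filters, other covariates, V2 kept, globin genes removed, nPM libraries in place of controls for the tissues, and each library left out in turn. Library totals alone means totals over the genes tested in a fit, without scaling factors. Intervals are 95% intervals. The scripts were tested on simulated counts (seed 20213). No 2 libraries were copies, since the smallest chi-square per gene of a pair was 7.23 (cortex) or 18.2 (blood), against 1 from sampling alone.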

Additional observations from a re-analysis of the deposited data

Results flagged for a closer look

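Tnf in nPM cortex was flagged for 1 library far from the others. Library V11, a female, stood at 0.121 CPM (4 counts) and the next at 0.0445 CPM, a gap of 0.631 of the group's range. In all 40 groups of libraries (10 members in 2 tissues and 2 exposures) were examined. Chance would flag about 1 in 20 of them, a rate not checked for counts as low as these.

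Tnfaip3 in cortex was flagged because the exposure groups lay apart in opposite directions in the sexes. The mean of nPM minus control was -0.709 CPM in females and 1.02 CPM in males. The interaction test did not pass (edgeR unadjusted p = 0.110, adjusted p = 0.608).

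The blood library V2, which entered no main comparison, held more of 9 members than any other control blood library, 7 of them by more than counting error. In plain CPM, with 95% Wilson intervals, V2 held 2.27 of Tlr2 (1.71 to 3.01), 2.08 of Tlr4 (1.55 to 2.79), 7.32 of Myd88 (6.25 to 8.57), 33.2 of Nfkb1 (30.8 to 35.7), 11.4 of Rela (10.03 to 12.9), 11.1 of Nfkbia (9.72 to 12.6) and 5.86 of Tnfaip3 (4.91 to 6.98). The highest values among the other 5 control blood libraries were 1.24 CPM for Tlr2, 0.959 for Tlr4, 1.28 for Myd88, 6.12 for Nfkb1, 1.42 for Rela, 2.79 for Nfkbia and 1.96 for Tnfaip3. Tnf at 0.472 CPM (0.257 to 0.869) and Cd14 at 0.283 CPM (0.130 to 0.618) were also above the highest of those libraries (0.296 and 0.274 CPM), within counting error. Il1b went the other way, with 0.425 CPM in V2 and at least 0.840 CPM in the others. In V2 the 7 monocyte genes summed to 91.7 CPM against 17.3 to 41.2 CPM in the other 11 blood libraries, the 9 microglial genes, which blood myeloid cells share in part, to 60.8 against 13.2 to 31.6 CPM, and the 11 neutrophil genes to 37.1 against 72.4 to 165 CPM. V2 also differed in globin share and keratinocyte genes, and the part of any of these in the members' values was not tested.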

How the results depend on the processing

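No paired analysis was possible because the labels give no replicate numbers and do not say which libraries share an animal, litter or day. The paper states that both tissues came from the same animals. The fit between the control tissues treated their libraries as independent, so its SEs and p-values ignore that pairing. The number of members called stayed at 0 in each exposure, interaction and single-sex comparison under every alternative run. Between the control tissues it was 7 or 8, and with nPM libraries in their place 6 of 7. Members near 0 changed sign without approaching a call. In cortex Rela moved to 0.000249 with library totals alone and 0.00135 without RIN. In blood Nfkb1 moved to 0.0153 with library totals alone and 0.00549 with lane added, and Rela to -0.077 with V2 kept. With each library left out in turn the cortex value ranged from -0.069 to 0.11 for Tlr2, -0.0021 to 0.13 for Tlr4, -0.040 to 0.036 for Rela, -0.056 to 0.032 for Nfkbia and -0.014 to 0.070 for Tnfaip3, and the blood value from -0.38 to 0.24 for Tlr4, -0.10 to 0.11 for Nfkb1, -0.11 to 0.19 for Rela and -0.23 to 0.39 for Tnf.

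Between the control tissues library totals alone turned the sign, to 1.35 for Tlr2, 2.50 for Tlr4, 2.25 for Myd88, 2.84 for Nfkb1, 4.22 for Rela, 3.46 for Nfkbia, 2.95 for Tnfaip3, 0.55 for Irak1, 0.46 for Tab3, 0.82 for Tab2, 0.85 for Ikbkg, 0.25 for Tnfrsf1b and 0.022 for Birc3. This follows from the construction of the alternative, which leaves out the factors that moved the median of all genes. Rela was called with DESeq2 (-0.47, adjusted p = 0.00705), RLE factors (-0.47), filterByExpr (-0.53) and without control male V8 (-0.39, adjusted p = 0.0486), and its adjusted p with 1 library left out ranged from 0.0486 to 0.652. Leaving out each library in female blood and each control female in the blood interaction was chosen after seeing the data. A lone control female is there assumed to vary like the other libraries. Tnfaip3 ranged from -2.84 to -0.79 in female blood (adjusted p from 0.106 to 1.00). In the blood interaction with 1 library left out Tnfaip3 ranged from 0.76 to 2.70, Rela from 0.80 to 1.70 and Nfkb1 from 0.56 to 1.04. Without RIN the interaction of Rela was 0.73, and with library totals alone that of Nfkb1 was 1.27. Counts of 0 to 30 per library limit Tlr2, Tlr4, Cd14, Myd88 and Tnf in blood and both cytokines in cortex. Rela with 8 to 31 counts and Tnfaip3 with 2 to 43 counts are limited likewise in blood.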

Other observations

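Chuk in cortex and Sigirr in blood had the smallest p-value of the wider pathway list in the nPM-by-sex interaction of their tissue. They were chosen after their values were seen, and neither reached an adjusted p of 0.05. Chuk, the gene of the IkB kinase alpha subunit, stood in cortex at 52.6 to 60.2 CPM in the 3 control females and 45.5 to 48.5 CPM in the 3 nPM females, and at 42.5 to 52.1 CPM in control and 45.2 to 53.8 CPM in nPM males. The share of all genes whose female groups lay apart was not counted, so these ranges are given as values only. With each sex fitted alone, the log2 fold change was -0.25 in females (SE 0.06, edgeR unadjusted p = 0.00199, adjusted p = 0.0858). It was 0.21 in males (SE 0.08, edgeR unadjusted p = 0.0275, adjusted p = 0.962). Of all genes tested, 15.4% in female and 4.51% in male cortex had an unadjusted edgeR p under 0.05. The interaction was 0.38 on the log2 scale (SE 0.12, edgeR unadjusted p = 0.00805, adjusted p = 0.384), and over 21 settings it ranged from 0.31 to 0.48 with adjusted p from 0.0541 to 0.752.

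Sigirr, which encodes an inhibitory receptor of toll-like and interleukin-1 receptor signaling, had 2, 2 and 1 counts in the control males of blood and 8, 13 and 14 counts in the nPM males. In females it had 11 and 23 counts in controls and 4, 4 and 15 counts after nPM. The interaction was 4.28 on the log2 scale (SE 0.88, edgeR unadjusted p = 9.84e-05, adjusted p = 0.221), the fourth smallest p of 9977 genes, and over 21 settings it ranged from 3.34 to 4.75 with adjusted p from 0.0797 to 0.964. The control males were under the floor of 3 counts, so the size of this value is poorly known. Its dependence on the prior count was not tested.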
